A study of Danio rerio with 18 samples.

Results

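The comparison described here sets whole zebrafish (Danio rerio) larvae that were maternal zygotic mutants for scospondin stl297, called MZ, against larvae heterozygous for that allele, called het, at 5 days post fertilisation (dpf). It rests on 6 of the 18 libraries of the series, 3 MZ and 3 het, chosen by genotype and age in the sample titles. A maternal zygotic mutant carries no normal copy itself and comes from a mutant mother, so that the egg was also without normal maternal product. A het larva carries the allele on 1 of its chromosomes. The series describes the allele as hypomorphic, meaning that it lowers gene function without abolishing it. Both groups therefore carry stl297, and no library of the series comes from fish without it. The labels report ordinary growth and no treatment, and they give neither the fish per library nor their clutches. The count columns name MZ libraries homoz and het libraries ox. Parents, clutch and genetic background may differ between the genotypes and cannot be told apart from the allele. All p-values measure the spread between these libraries, which may be technical.

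The gene scospondin encodes a giant secreted protein of the Reissner fibre, a thread in the cerebrospinal fluid that runs from the brain down the central canal. Loss of the fibre in zebrafish is known to bend the body axis. A larva of this age is a free-swimming animal with a working gut, liver, pronephric kidney, lens and retina, with ion-transporting cells in its skin, a cartilage skeleton and the first bone. Its trunk is mostly muscle, and many tissues are still dividing. A whole-body library adds all of these together, so fewer cells of a type and less RNA per cell cannot be told apart in any result.

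Total counts were 10635424 to 16359394 in MZ and 10178388 to 14950176 in het libraries. Of 48 markers of 19 tissues, 45 were in the table and all but bglap, a gene of mature osteoblasts with 0 counts in every library, had counts above the floor of 3. Scospondin itself had 8, 16 and 14 counts in MZ and 6, 4 and 16 in het libraries (log2 fold change 0.51, SE 0.51, adjusted p = 0.455). A difference in it was not detectable at this depth, and the allele need not change its transcript, so these counts do not check the labels. Of 19779 genes tested with edgeR's quasi-likelihood test, 8043 (40.7%) passed a Benjamini-Hochberg adjusted p of 0.05, 4172 higher (21.1%) and 3871 lower (19.6%) in MZ. By more than 2-fold, 1624 (8.21%) were higher and 634 (3.21%) lower. In 10116 genes (51.1%) the 2 groups of libraries did not overlap, so a lack of overlap in 1 gene is common in this comparison. The balance of directions depended on the scaling: 3659 were higher and 4716 lower with TMM factors over all 18 libraries, 3248 and 4517 in 1 fit over those libraries, and 4363 and 3130 with library totals alone. The median log2 fold change of all genes stayed within 0.1 of 0 under each of these. All fold changes are MZ over het, and levels are CPM, counts scaled to library size with TMM factors over the 6 libraries.

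The 40 circadian clock genes tested had 17 called higher and 11 lower, and 27 of 31 pan-neuronal genes were higher, with a median log2 fold change of 1.00. By more than 2-fold, 9 clock genes were higher and 6 lower. Of 31 immediate early genes 20 were higher and 4 lower, and of 15 light-inducible DNA repair genes 8 were higher and 1 lower. These lists are the background to the other tissues and pathways, and their part in those results was not tested. Gene length moved with genotype as well. Among the tenth of genes with the shortest deposited length (median 826 bases), 14.9% were higher and 27.9% lower in MZ. Among the tenth with the longest (median 6929 bases), 39.4% were higher and 9.61% lower. The counts of a list are therefore also given with a length trend taken out where that moved them by more than 1.5 times. Fold changes of single genes are mostly given without that step, and some moved with it. That of the muscle gene ryr1b was 1.53 on the log2 scale, and 0.96 with the trend taken out. The part of length in any result was not tested.

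**Figure D1:**
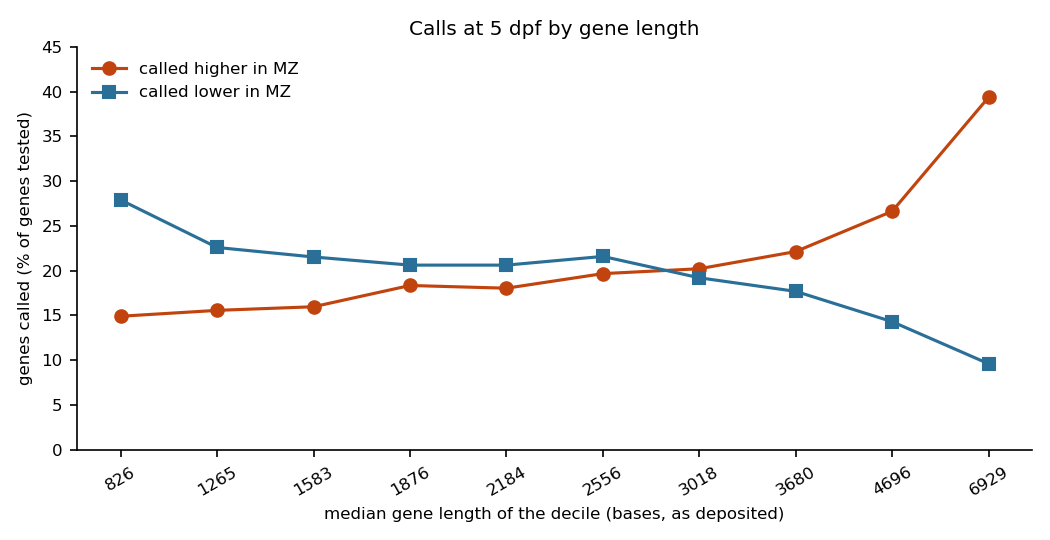
Percent of genes called higher and lower in MZ at 5 dpf in 10 groups of genes ordered by the deposited gene length (x axis: median length in bases). The share called higher is 14.9% among the shortest and 39.4% among the longest genes, and the share called lower is 27.9% and 9.61%.

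**Figure D2:**
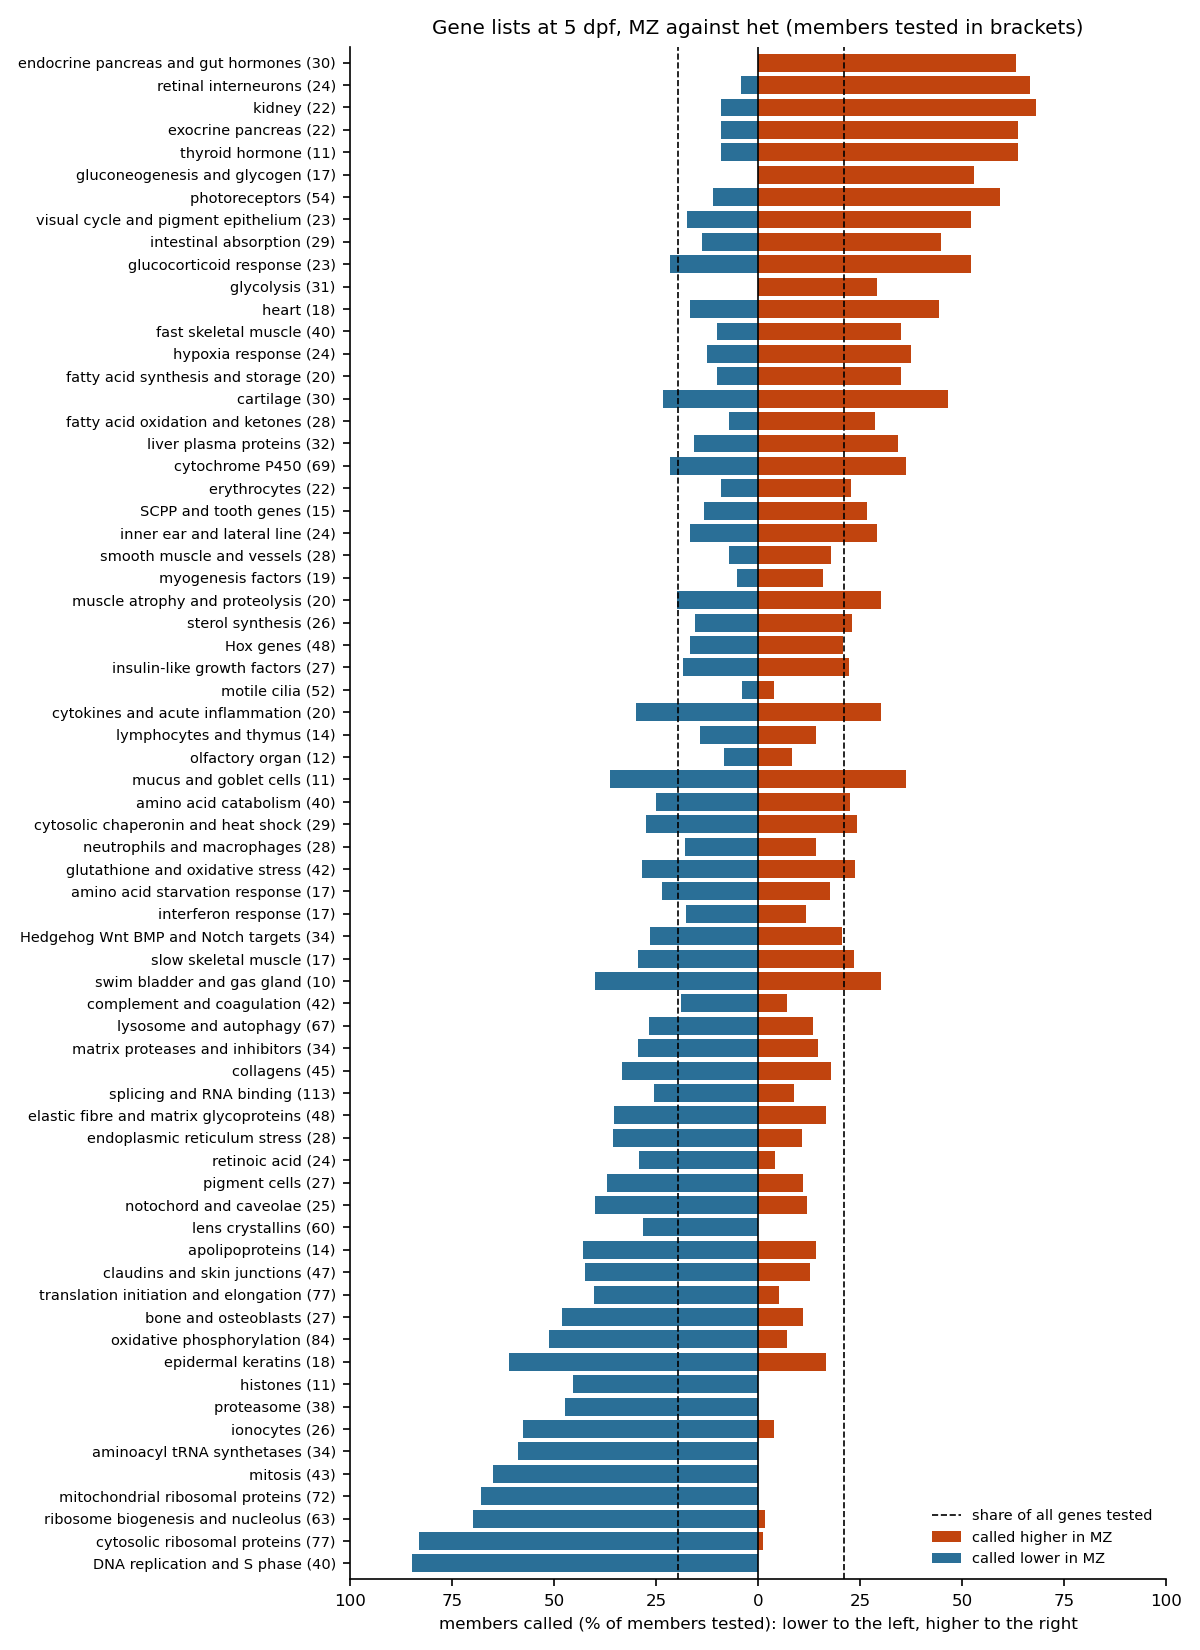
Share of the tested members of gene lists called higher (right) or lower (left) in MZ at 5 dpf, in percent, with the share of all genes tested (21.1% higher, 19.6% lower) as dashed lines and the members tested in brackets. Lists with at least 10 tested members are drawn, without the circadian clock, pan-neuronal, immediate early, light-inducible DNA repair and solute carrier lists. Replication, mitosis and ribosome lists lie almost wholly to the left, with 34 of 40 replication genes lower, while kidney, pancreas, hormone and retinal lists lie mostly to the right, with 15 of 22 kidney genes higher.

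Genes of cell division were lower in MZ larvae. Of 40 tested genes of DNA replication and S phase, 34 were called lower and 0 higher, against 19.6% and 21.1% of all genes, and their median log2 fold change was -0.65, against -0.0028 over all genes. The gene mcm5, for a subunit of the helicase that opens replication origins, had 20.4, 21.0 and 21.9 CPM in MZ and 54.4, 69.3 and 63.9 CPM in het libraries. Every MZ library lay far below every het library (log2 fold change -1.56, SE 0.11, adjusted p = 2.25e-07). Its partner mcm2 had 50.7, 51.5 and 54.6 CPM in MZ and 111, 121 and 129.8 CPM in het libraries (log2 fold change -1.21, SE 0.10, adjusted p = 6.8e-07), again with no overlap. For pcna, the sliding clamp of the replication fork, the values were 174, 138 and 148 CPM in MZ and 261, 297 and 289 CPM in het libraries (log2 fold change -0.88, SE 0.11, adjusted p = 2.52e-05). The gene gins2, for another helicase component, fell too (log2 fold change -1.25, SE 0.18, adjusted p = 0.000104). Of 43 tested mitosis genes, 28 were lower and 0 higher, with a median of -0.56, and all 43 had a fold change below 0. The proliferation marker mki67 had 39.5, 37.4 and 34.8 CPM in MZ and 59.9, 55.2 and 58.1 CPM in het libraries (log2 fold change -0.63, SE 0.10, adjusted p = 0.000193), and ccna2 (cyclin A2), ttk (a spindle checkpoint kinase) and top2a (topoisomerase II) fell by 0.82, 0.79 and 0.74 on the log2 scale. The cell cycle inhibitor gene cdkn1a, known as p21, was lower as well. It had 12.2, 8.34 and 12.6 CPM in MZ and 70.7, 68.1 and 59.07 CPM in het libraries, among the 12 largest falls (log2 fold change -2.56, SE 0.14, adjusted p = 2.6e-08). Its part in the falls of the other genes was not tested. Ranks of the largest rises and falls leave out genes with clone-type names, such as those that start with si: or zgc:. In the cell cycle lists each fit without 1 library called at least 27 replication and 23 mitosis genes lower.

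Ribosomes, translation and mitochondria were also lower. Of 77 cytosolic ribosomal protein genes 64 were lower and 1 higher, with a median of -0.42, and their summed level was 70552 to 72137 CPM in MZ and 84330 to 100869 CPM in het libraries. The shift was small in each gene and shared by nearly all: 76 of the 77 had a fold change below 0. Among the largest were those of rpl22l1 and rpl38, and the 1 that rose was rps8b (log2 fold change 1.04), with means of 4.94 ± 0.77 CPM in MZ and 2.41 ± 0.16 CPM in het libraries (SD, n = 3 each). For rpl38 the values were 339, 332 and 272 CPM in MZ and 542, 595 and 466 CPM in het libraries (log2 fold change -0.77, SE 0.12, adjusted p = 0.000155), with the 3 MZ libraries below the 3 het libraries. The most counted member, rplp0, had 3193, 3223 and 3528 CPM in MZ and 3726, 4365 and 3764 CPM in het libraries and was not called (log2 fold change -0.25, SE 0.11, adjusted p = 0.0801). Of 72 mitochondrial ribosomal protein genes 49 were lower and 0 higher (median -0.46), led by mrps21, mrpl32 and mrpl28. Of 63 genes of ribosome biogenesis 44 were lower and 1 higher (median -0.41), among them nat10, which acetylates ribosomal RNA, with 28.2, 29.2 and 33.4 CPM in MZ and 53.1, 55.5 and 47.5 CPM in het libraries (log2 fold change -0.78, SE 0.11, adjusted p = 7.68e-05), and polr1c, a shared subunit of RNA polymerases I and III. These ribosomal genes are short, with a median deposited length of 1103 bases for the cytosolic and 1082 for the mitochondrial list. With the length trend taken out, 52 cytosolic and 41 mitochondrial ribosomal protein genes were still called lower.

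Of 34 aminoacyl tRNA synthetase genes, which charge transfer RNAs with amino acids, 20 were lower and 0 higher. Their median length of 2681 bases is above that of all genes tested, 2359 bases, and with the length trend taken out 21 were lower. The genes qars and rars, which charge glutamine and arginine, fell by 0.72 and 0.59 on the log2 scale, with 34.8, 33.7 and 36.5 CPM in MZ and 56.9, 63.7 and 53.1 CPM in het libraries for qars. Of 77 translation factor genes 31 were lower and 4 higher. The higher ones included eef1a1a (log2 fold change 0.86, SE 0.12, adjusted p = 5.31e-05) and eef1a1b (log2 fold change 0.73, SE 0.13, adjusted p = 0.000364), forms of elongation factor 1 alpha, whereas the abundant eef1a1l1 had 6891, 7331 and 7886 CPM in MZ and 8243, 9079.7 and 8197 CPM in het libraries and was not called. Proteasome subunits gave 18 lower and 0 higher of 38, led by psmd10, psma6a and psma5. Between 10 and 11 were lower without het replicate 1, het replicate 2, MZ replicate 2 or MZ replicate 3, and 12 with the length trend taken out. Of 84 nuclear genes of oxidative phosphorylation 43 were lower and 6 higher (median -0.31). These genes are short as well, with a median deposited length of 871 bases, and the list's median lay between -0.38 and -0.18 over all alternatives. The cytochrome oxidase subunit gene cox5b2 had 15.3, 17.2 and 15.2 CPM in MZ and 33.2, 37.4 and 29.3 CPM in het libraries (log2 fold change -1.06, SE 0.12, adjusted p = 1.5e-05), and the ATP synthase genes atp5ia and atp5e fell by 0.82 and 0.62. The ATP synthase beta subunit gene atp5b, the most counted of the list, was not called (log2 fold change -0.17, SE 0.11, adjusted p = 0.232). The 13 mitochondrially encoded genes in the table had 0 counts in every library and were not tested.

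The skin and its transporting cells made up a second lower group. Of 18 tested epidermal keratin genes 11 were lower and 3 higher (median -0.47). The outer-layer keratin krt4 had 8262, 11394 and 10558 CPM in MZ and 17929.5, 18053 and 17599.7 CPM in het libraries. All MZ libraries lay below all het libraries, and the MZ libraries were the more scattered (log2 fold change -0.83, SE 0.13, adjusted p = 0.000227). The type I keratins cyt1l (log2 fold change -1.18, SE 0.16, adjusted p = 6.08e-05) and krt1-c5 (log2 fold change -1.41, SE 0.13, adjusted p = 2.24e-06) fell by more. Among the 3 keratins that were higher, krt93 had 14.6, 17.8 and 19.9 CPM in MZ and 0.206, 3.54 and 0.273 CPM in het libraries, so that its fold change of 3.97 on the log2 scale rests on het libraries near 0 and on het replicate 2. The skin markers krt5 and epcam fell by 0.50 and 0.58. Of 47 tested claudin and skin junction genes 20 were lower and 6 higher (median -0.22), and 13 were lower without het replicate 1 or without MZ replicate 1. The tight junction gene cldn1 had 39.5, 47.4 and 44.8 CPM in MZ and 137, 128 and 126 CPM in het libraries (log2 fold change -1.57, SE 0.10, adjusted p = 1.08e-07). The skin claudin cldni had 349.8, 335 and 354 CPM in MZ and 675, 611 and 598 CPM in het libraries (log2 fold change -0.86, SE 0.10, adjusted p = 1.25e-05), and the desmosome gene pkp1b fell by 1.17. The hemidesmosome collagen col17a1a, which anchors the epidermis, had 105, 116 and 129.9 CPM in MZ and 278, 231 and 265 CPM in het libraries (log2 fold change -1.14, SE 0.11, adjusted p = 3.01e-06).

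Ionocytes are the skin cells that take up salt and calcium and release ammonia and acid in fish larvae. Of 26 ionocyte genes tested 15 were lower and 1 higher (median -0.53), and 6 were lower by more than 2-fold. Without het replicate 2 or MZ replicate 1, 2 were higher. The ammonia channel rhcga had 50.5, 70.26 and 69.8 CPM in MZ and 389, 406 and 381 CPM in het libraries and was among the 12 largest falls at 5 CPM or more (log2 fold change -2.63, SE 0.13, adjusted p = 5.47e-09). The groups were far apart, with less than 75 CPM in each MZ and more than 375 CPM in each het library. The epithelial calcium channel trpv6, chosen after its values were seen, had 152, 225 and 194 CPM in MZ and 461, 376 and 432 CPM in het libraries (log2 fold change -1.15, SE 0.13, adjusted p = 1.36e-05). The carbonic anhydrase gene ca15a (log2 fold change -1.38, SE 0.12, adjusted p = 1.55e-06) and the sodium pump subunit atp1a1a.3 (log2 fold change -1.42, SE 0.11, adjusted p = 5.27e-07) fell by similar amounts. The ammonia channel rhbg, with most counts of the list, had 296, 365 and 317 CPM in MZ and 564, 501 and 486 CPM in het libraries (log2 fold change -0.67, SE 0.11, adjusted p = 0.00024). Also lower were foxi3a and foxi3b, transcription factors that specify ionocytes, by 0.78 and 0.98. The 1 member that rose was stc1l (log2 fold change 1.96), a stanniocalcin. Stanniocalcin is a hormone that limits calcium uptake in fish and is made outside the skin.

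Pigment cell genes were lower more often than higher. Of 27 tested 10 were lower and 3 higher (median -0.36), 5 of them lower by more than 2-fold. The 3 called members at 5 CPM or more with the largest falls were gch2, which starts pteridine pigment synthesis, aox5, and the transporter gene slc2a15a, all known from the yellow xanthophores. For gch2 the values were 116, 86.9 and 96.4 CPM in MZ and 310.5, 311 and 286 CPM in het libraries (log2 fold change -1.60, SE 0.11, adjusted p = 2.04e-07). For aox5 they were 14.9, 10.9 and 13.1 CPM in MZ and 42.6, 52.8 and 49.6 CPM in het libraries (log2 fold change -1.88, SE 0.13, adjusted p = 1.85e-07), with no overlap in either. Other genes known from xanthophores, xdh (log2 fold change -0.10) and csf1ra (-0.51), chosen after their values were seen, were not called. The iridophore gene pnp4a fell by 0.91. Genes of melanophores were split: mitfa, their master transcription factor, had 20, 7 and 19 counts in MZ and 105, 58 and 111 counts in het libraries (log2 fold change -2.65, adjusted p = 4.21e-06), dct rose by 0.60, and pmela had 122, 113 and 126 CPM in MZ and 107, 122 and 115 CPM in het libraries and was not called. The genes mitfa and dct were chosen after their values were seen. Mucus genes split. The gel-forming mucin muc5.3 had 8.31, 11.4 and 9.38 CPM in MZ and 0.685, 0.937 and 0.409 CPM in het libraries (log2 fold change 3.88, SE 0.28, adjusted p = 2.18e-07), whereas muc5.2 had 17.97, 29.3 and 20.8 CPM in MZ and 55.4, 46.3 and 50.8 CPM in het libraries (log2 fold change -1.18, SE 0.15, adjusted p = 3.56e-05) and muc5.1 fell by 0.40. With the length trend taken out, muc5.2 and muc5.1 fell by 1.80 and 0.98. Of the 11 mucus genes tested 4 were higher and 4 lower (36.4% each). One of the lower ones, mucms1, had 0 counts in each MZ library and 114, 79 and 112 in het libraries, a contrast chosen after its values were seen.

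**Figure D3:**
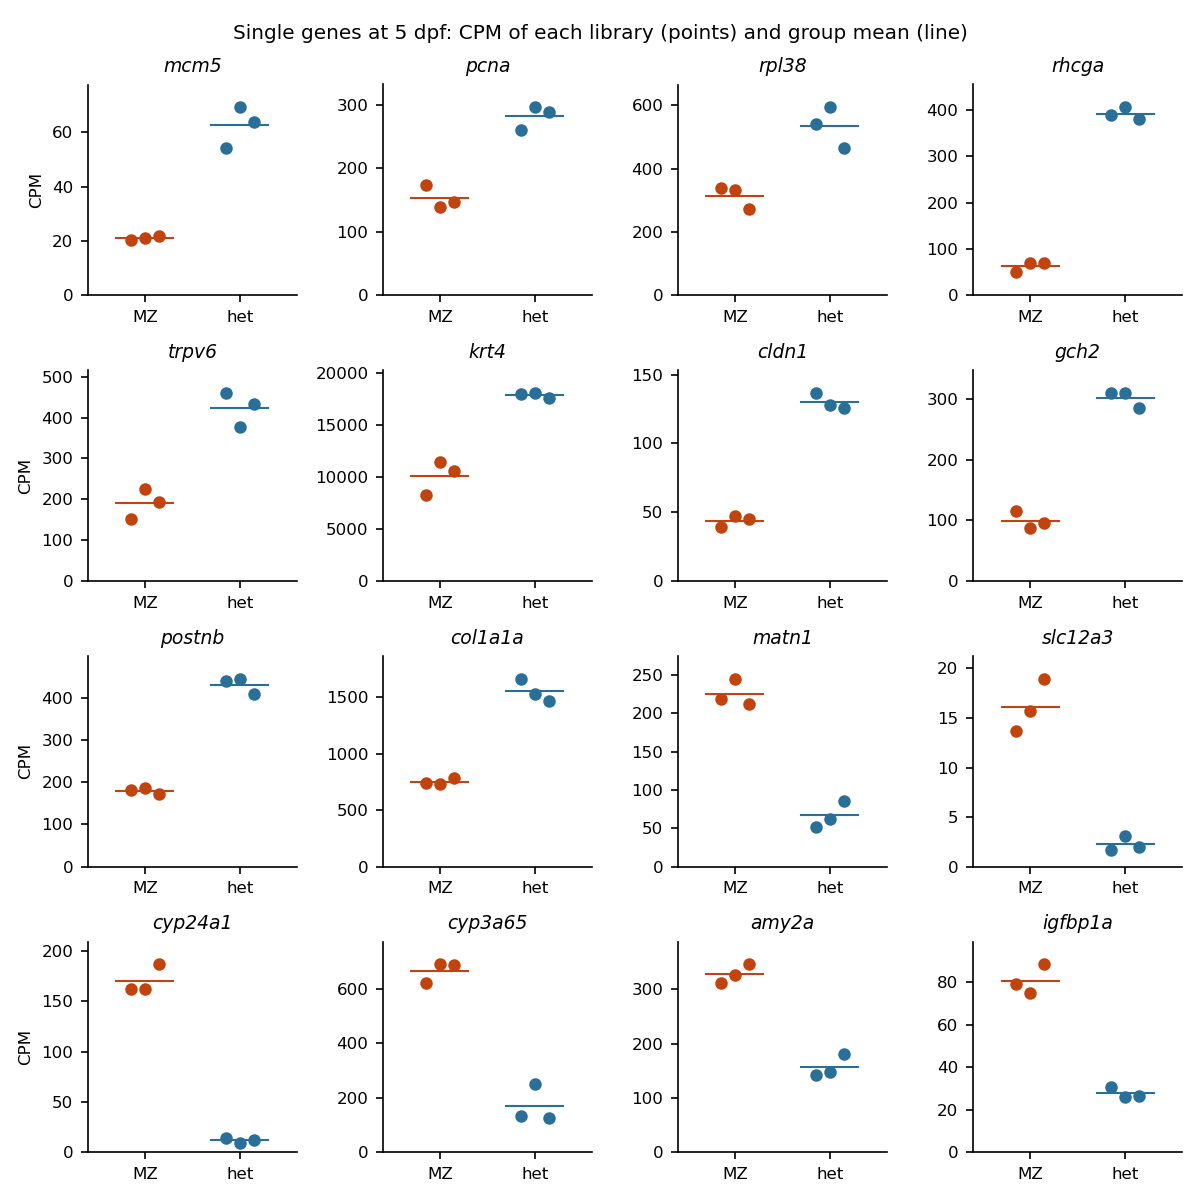
CPM of 16 genes in each 5 dpf library (points) with the group mean (line), MZ on the left and het on the right of each panel. The groups do not overlap in any panel, and for rhcga the MZ libraries lie at 50.5 to 70.26 CPM and the het libraries at 381 to 406 CPM. The genes were picked by hand from called genes, and the groups do not overlap in 51.1% of all genes tested.

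In the skeleton, cartilage genes were mostly higher and bone genes mostly lower among those called. Of 30 cartilage genes 14 were higher and 7 lower, and the median log2 fold change was 0.27, or 0.07 with the length trend taken out. The cartilage matrix gene matn1 had 219, 245 and 212 CPM in MZ and 51.9, 62.8 and 86.1 CPM in het libraries, with het replicate 3 the nearest to the MZ libraries (log2 fold change 1.75, SE 0.15, adjusted p = 8.7e-07). The type II collagen gene col2a1a, the main fibre of cartilage, had 295, 297 and 281 CPM in MZ and 133, 134 and 139.5 CPM in het libraries (log2 fold change 1.105, SE 0.09, adjusted p = 7.37e-07), and the proteoglycan aggrecan gene acana rose too (log2 fold change 1.97, SE 0.21, adjusted p = 8.09e-06). The most counted member, matn4, had 243, 265 and 259 CPM in MZ and 253, 254 and 291 CPM in het libraries and was not called. Of 27 bone and osteoblast genes 13 were lower and 3 higher (median -0.53). The bone and periosteum gene postnb had 182, 186 and 172 CPM in MZ and 438, 445 and 409 CPM in het libraries, with no overlap (log2 fold change -1.26, SE 0.09, adjusted p = 2.92e-07). The type I collagen genes col1a1a and col1a2 fell together. For col1a1a the values were 740.0, 737 and 784 CPM in MZ and 1667, 1530.3 and 1466 CPM in het libraries (log2 fold change -1.04, SE 0.10, adjusted p = 3.18e-06), and for col1a2, chosen after its values were seen, 608, 614 and 632 CPM in MZ and 1201, 1142 and 1259 CPM in het libraries (log2 fold change -0.96, SE 0.10, adjusted p = 4.8e-06). These 2 genes are also expressed in skin and other connective tissue. The channel gene panx3 fell by 1.05, and sp7, a transcription factor of osteoblasts, had means of 1.04 ± 0.12 CPM in MZ and 1.56 ± 0.09 CPM in het libraries (SD, n = 3 each) and was not called.

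The secreted phosphoprotein genes of teeth and their surface included the 2 largest rises in the ranking. It covers genes at 5 CPM or more, without a clone-type name, whose groups did not overlap. The gene odam had 15.6, 10.197 and 9.38 CPM in MZ and 0, 0.833 and 0 CPM in het libraries (log2 fold change 5.76, SE 0.54, adjusted p = 2.37e-06), and scpp5 had 29.4, 40.7 and 33.1 CPM in MZ and 0.48, 2.19 and 0 CPM in het libraries (log2 fold change 5.53, SE 0.41, adjusted p = 2.89e-07). Among het libraries only replicate 2 held odam, at 8 counts, and it held most of the het scpp5 and scpp9. The third, scpp9, had 21.2, 7.69 and 17.2 CPM in MZ and 0, 6.04 and 0.136 CPM in het libraries (log2 fold change 3.22, SE 0.71, adjusted p = 0.00225), and its MZ replicate 2 lay close to het replicate 2. Of the 15 tested genes of this list 4 were higher and 2 lower, near the 21.1% and 19.6% of all genes. Their median log2 fold change was -0.21, and 11 of the 15 had a fold change below 0. The summed level of the list was 713 to 732 CPM in MZ and 1008 to 1064 CPM in het libraries. The gene sparc, for a bone and connective tissue glycoprotein, had 459.5, 462 and 450.1 CPM in MZ and 789, 799 and 746 CPM in het libraries (log2 fold change -0.77, SE 0.09, adjusted p = 2.6e-05).

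Hox genes, which mark position along the body axis, split by paralog group. Of 48 tested 10 were higher and 8 lower, near the shares of all genes, and 5 or 6 were higher without het replicate 1, het replicate 2, MZ replicate 1 or MZ replicate 2. All 10 higher genes belonged to groups 1 to 9 and all 8 lower genes to groups 11 and 13, which mark the hindmost body. The anterior gene hoxb3a had 26.4, 26.3 and 22.9 CPM in MZ and 11.2, 11.97 and 15.7 CPM in het libraries (log2 fold change 0.95, SE 0.14, adjusted p = 0.000125) and hoxd3a rose by 0.89. The posterior gene hoxa13b had 7.32, 8.99 and 7.24 CPM in MZ and 14.7, 16.1 and 13.7 CPM in het libraries (log2 fold change -0.92, SE 0.15, adjusted p = 0.000256), and hoxa13a, hoxb13a, hoxc13a, hoxc13b and hoxd13a were lower with it. This split was chosen after the values were seen and has no test of its own. Anterior Hox genes are expressed in hindbrain and spinal cord, and 27 of 31 pan-neuronal genes were higher in the same libraries; the part of neuronal RNA was not tested.

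Connective tissue matrix was lower in part. Of 45 collagen genes 15 were lower (33.3%) and 8 higher (17.8%), with a median of -0.12. The shares of all genes, here and for the lists below, were 19.6% lower and 21.1% higher. These genes are long, with a median of 5960 bases, and with the length trend taken out 23 were lower and 6 higher (median -0.39). Of 48 genes of elastic fibres and matrix glycoproteins 17 were lower and 8 higher, or 22 and 5 with the length trend taken out, and 14 and 4 without MZ replicate 3. The small proteoglycan fmodb had 22.3, 23.8 and 24.5 CPM in MZ and 60.02, 54.9 and 53.0 CPM in het libraries (log2 fold change -1.25, SE 0.10, adjusted p = 7.14e-07), and emilin2b (log2 fold change -1.38, SE 0.14, adjusted p = 3.93e-06) fell as well. The decorin gene dcn had 183, 194 and 179 CPM in MZ and 278, 264 and 259 CPM in het libraries (log2 fold change -0.53, SE 0.09, adjusted p = 0.000453), while the tenascin gene tnxba rose (log2 fold change 1.64, SE 0.22, adjusted p = 6e-05). The protease gene mmp28 had 9.54, 7.04 and 10.6 CPM in MZ and 29.3, 28.4 and 29.0 CPM in het libraries (log2 fold change -1.66, SE 0.14, adjusted p = 1e-06) and mmp2 fell by 0.87. Of 25 genes of the notochord and of caveolae, the membrane pits that let notochord cells withstand strain, 10 were lower and 3 higher. Between 5 and 6 were lower, and 1 to 3 higher, without het replicate 1, het replicate 2, MZ replicate 1 or MZ replicate 3. Their members did not move as 1 group: cav1 (log2 fold change 0.50) and shha (0.54) rose, whereas cav2 fell by 0.63, ta (brachyury) by 0.75 and rcn3 by 0.87. The fall of ta was called in only 3 of the 6 fits without 1 library.

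Digestive and absorptive genes were higher in MZ larvae. Of 22 exocrine pancreas genes 14 were higher and 2 lower (median 0.55), and their summed level was 32490 to 38074 CPM in MZ and 19171 to 28569 CPM in het libraries. The amylase gene amy2a had 311, 325 and 346 CPM in MZ and 143, 148 and 181 CPM in het libraries, with no overlap (log2 fold change 1.06, SE 0.11, adjusted p = 5.35e-06). The carboxypeptidase gene cpa5 had 3045, 3127 and 3372 CPM in MZ and 1368, 1414 and 2373 CPM in het libraries (log2 fold change 0.89, SE 0.17, adjusted p = 0.000873), with het replicate 3 nearest the MZ libraries, and the median of the list was also highest among het libraries in het replicate 3. The trypsin gene try and the lipase gene cel.1 rose by 0.62 and 0.98 on the log2 scale. Of 29 intestinal genes 13 were higher and 4 lower (median 0.45). The count of higher genes was 20 without het replicate 2, which lay above the other het libraries, and 1 or 2 were lower without het replicate 2 or without any 1 MZ library. The chitinase gene chia.2 had 2404, 2575 and 2694 CPM in MZ and 749, 1235 and 649 CPM in het libraries (log2 fold change 1.54, SE 0.18, adjusted p = 1.76e-05), and cdx1b, a transcription factor of the intestinal lining, had 8.66, 11.96 and 9.45 CPM in MZ and 3.22, 4.79 and 3.61 CPM in het libraries (log2 fold change 1.38, SE 0.20, adjusted p = 0.00011). The markers fabp2, fabp6 and vil1 (log2 fold change 0.45) of the gut lining were not called.

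Liver genes were mixed. Of 32 plasma protein genes 11 were higher and 5 lower (median 0.16), and the marker fabp10a averaged 901 ± 20.4 CPM in MZ and 908 ± 128 CPM in het libraries (SD, n = 3 each). The apolipoprotein B gene apoba had 27.8, 30.3 and 28.7 CPM in MZ and 72.1, 78.0 and 82.0 CPM in het libraries (log2 fold change -1.42, SE 0.10, adjusted p = 2.09e-07). The trypsin inhibitor serpina1l rose (log2 fold change 0.77, SE 0.13, adjusted p = 0.000344). Transferrin tfa, chosen after its values were seen, had 1077, 242 and 921 CPM in MZ and 1047, 1046 and 976 CPM in het libraries, so that MZ replicate 2 stood apart from the 5 other libraries and the gene was not called. The list of cytokines and acute inflammation was balanced, with 6 of 20 genes higher and 6 lower (median -0.07), and 3 were lower without het replicate 1. The C-reactive protein gene crp had 9.07, 10.197 and 8.12 CPM in MZ and 71.7, 82.7 and 61.5 CPM in het libraries (log2 fold change -2.98, SE 0.14, adjusted p = 3.28e-09), and the iron hormone gene hamp fell with it (log2 fold change -1.04, SE 0.22, adjusted p = 0.00161). The complement genes c3a.2 (log2 fold change -3.00, SE 0.22, adjusted p = 2.84e-07) and cfd (log2 fold change -1.65, SE 0.11, adjusted p = 1.12e-07) fell as well. A near copy, c3a.1, had 157, 157 and 199.7 CPM in MZ and 84.9, 99.0 and 98.0 CPM in het libraries and rose (log2 fold change 0.87, SE 0.11, adjusted p = 4.87e-05), and reads shared between such copies make both values uncertain. Over the 42 complement and coagulation genes 8 were lower and 3 higher, below the 40.7% of all genes, and fgg, of fibrinogen, was not called.

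Cytochrome P450 genes, which oxidise drugs, steroids and vitamins, had 25 members higher (36.2%) and 15 lower (21.7%) of 69. The shares of all genes were 21.1% and 19.6%. By more than 2-fold 13 members were higher and 6 lower. The vitamin D inactivating gene cyp24a1 had 163, 162 and 187 CPM in MZ and 14.5, 9.58 and 12.1 CPM in het libraries (log2 fold change 3.81, SE 0.14, adjusted p = 2.05e-10). Every MZ library lay far above every het library. The most counted member, cyp3a65, of the gut and liver, had 619, 689 and 687 CPM in MZ and 135, 249 and 126 CPM in het libraries (log2 fold change 1.97, SE 0.20, adjusted p = 3.89e-06). The gene cyp2k18 rose by 3.34, while cyp2aa4 and cyp2aa8 fell by 3.01 and 2.82, with 1.46, 0.0927 and 1.62 CPM in MZ and 8.84, 9.89 and 8.99 CPM in het libraries for cyp2aa4. These belong to clusters of similar genes, whose shared reads make the values uncertain. Of 42 genes of glutathione and oxidative stress 10 were higher (23.8%) and 12 lower (28.6%), with a median of -0.12. The member with the highest fold change, gstp2, a glutathione transferase, had 78.6, 36.5 and 53.4 CPM in MZ and 8.08, 22.3 and 8.58 CPM in het libraries (log2 fold change 2.18, SE 0.31, adjusted p = 9.69e-05).

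Among the lists of fuel metabolism, that of gluconeogenesis and glycogen had 9 of 17 genes higher, and the others were mixed or nearer to the 21.1% and 19.6% of all genes. In the first list 0 genes were lower, and its median was 0.35. The gene pck1, for the enzyme that commits carbon to new glucose, had 602, 541 and 631 CPM in MZ and 300.3, 378 and 348 CPM in het libraries (log2 fold change 0.79, SE 0.11, adjusted p = 7.21e-05). The glycogen phosphorylase gene pygmb and the coactivator gene ppargc1a rose by 0.97 and 0.91. Of 31 glycolysis genes 9 were higher and 0 lower, among them gck (glucokinase) and aldocb (aldolase), but gapdh was not called (log2 fold change -0.07, SE 0.13, adjusted p = 0.682). Of 28 genes of fatty acid oxidation 8 were higher and 2 lower (median 0.05), with 5 higher without het replicate 3 or MZ replicate 3, and 1 lower without het replicate 2 or MZ replicate 3. Of 20 genes of fatty acid synthesis 7 were higher and 2 lower, with 4 higher without MZ replicate 3, 5 lower without het replicate 3 and 1 lower without het replicate 2. Of 40 genes of amino acid catabolism 9 were higher and 10 lower. Without MZ replicate 3 these were 5 and 6, and 6 were lower also without het replicate 1 or het replicate 2. Of 20 genes of muscle atrophy and proteolysis 6 were higher and 4 lower (median 0.05), and 2 were higher without MZ replicate 3. The kinase pdk2b, which holds back pyruvate oxidation, had 615, 642 and 748 CPM in MZ and 239, 218 and 173 CPM in het libraries (log2 fold change 1.67, SE 0.13, adjusted p = 2.92e-07). The fatty acid importer gene cpt1b rose too (log2 fold change 0.71, SE 0.11, adjusted p = 0.0002). The insulin-like growth factor binding protein genes igfbp1a and igfbp1b, known to rise in fasted or oxygen-poor fish, were higher. In the insulin-like growth factor list of 27 genes 6 were higher (22.2%) and 5 lower (18.5%), near the shares of all genes. Of 24 hypoxia response genes 9 were higher and 3 lower, with 6 to 8 higher in the fits without 1 library. Fasting and low oxygen were not tested. For igfbp1a the values were 79.0, 74.7 and 88.3 CPM in MZ and 30.8, 25.8 and 26.6 CPM in het libraries (log2 fold change 1.54, SE 0.11, adjusted p = 2.15e-07). For igfbp1b they were 9.31, 31.0 and 33.1 CPM in MZ and 3.97, 4.16 and 6.47 CPM in het libraries, with MZ replicate 1 well below the other MZ libraries (log2 fold change 2.29, SE 0.36, adjusted p = 0.00021). The muscle ubiquitin ligase gene fbxo32 had 91.8, 125 and 121 CPM in MZ and 41.0, 34.8 and 31.1 CPM in het libraries (log2 fold change 1.66, SE 0.13, adjusted p = 5.74e-07), and foxo1a, a transcription factor that insulin holds back, had 42.6, 45.8 and 44.96 CPM in MZ and 23.8, 24.5 and 20.4 CPM in het libraries (log2 fold change 0.96, SE 0.11, adjusted p = 1.33e-05). The amino acid transporter chain slc3a2b fell (log2 fold change -0.86, SE 0.11, adjusted p = 2.54e-05).

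Genes of the kidney tubule were higher in MZ larvae. Of 22 kidney genes 15 were higher (68.2%) and 2 lower (9.09%), against 21.1% and 19.6% of all genes. By more than 2-fold 10 were higher, and the median was 0.90. The sodium chloride cotransporter gene slc12a3 of the distal tubule had 13.6, 15.7 and 18.97 CPM in MZ and 1.71, 3.12 and 1.98 CPM in het libraries (log2 fold change 2.87, SE 0.22, adjusted p = 3.06e-07). The organic anion transporter gene slc22a6l of the proximal tubule had 23.6, 23.5 and 23.4 CPM in MZ and 6.37, 7.70 and 5.995 CPM in het libraries (log2 fold change 1.83, SE 0.14, adjusted p = 2.92e-07). The sulfate transporter gene slc13a1 had 35.9, 36.6 and 41.8 CPM in MZ and 10.6, 14.5 and 8.99 CPM in het libraries (log2 fold change 1.77, SE 0.15, adjusted p = 9.4e-07). In each of these genes the groups were well separated. The endocytic receptor gene lrp2a (megalin) rose by 1.42, or by 0.83 with the length trend taken out. The podocyte genes podxl (log2 fold change -0.39, called lower) and wt1a (0.08, not called) did not rise. The water channel aqp3a, which holds most counts of the list and is also made in fish skin, had 237, 268 and 255 CPM in MZ and 678, 634 and 587 CPM in het libraries (log2 fold change -1.32, SE 0.10, adjusted p = 3.06e-07). Over the broader class of 325 solute carriers 98 were higher (30.2%) and 56 lower (17.2%), nearer to the shares of all genes. Without het replicate 1 and without MZ replicate 3, 36 and 35 were lower.

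**Figure D4:**
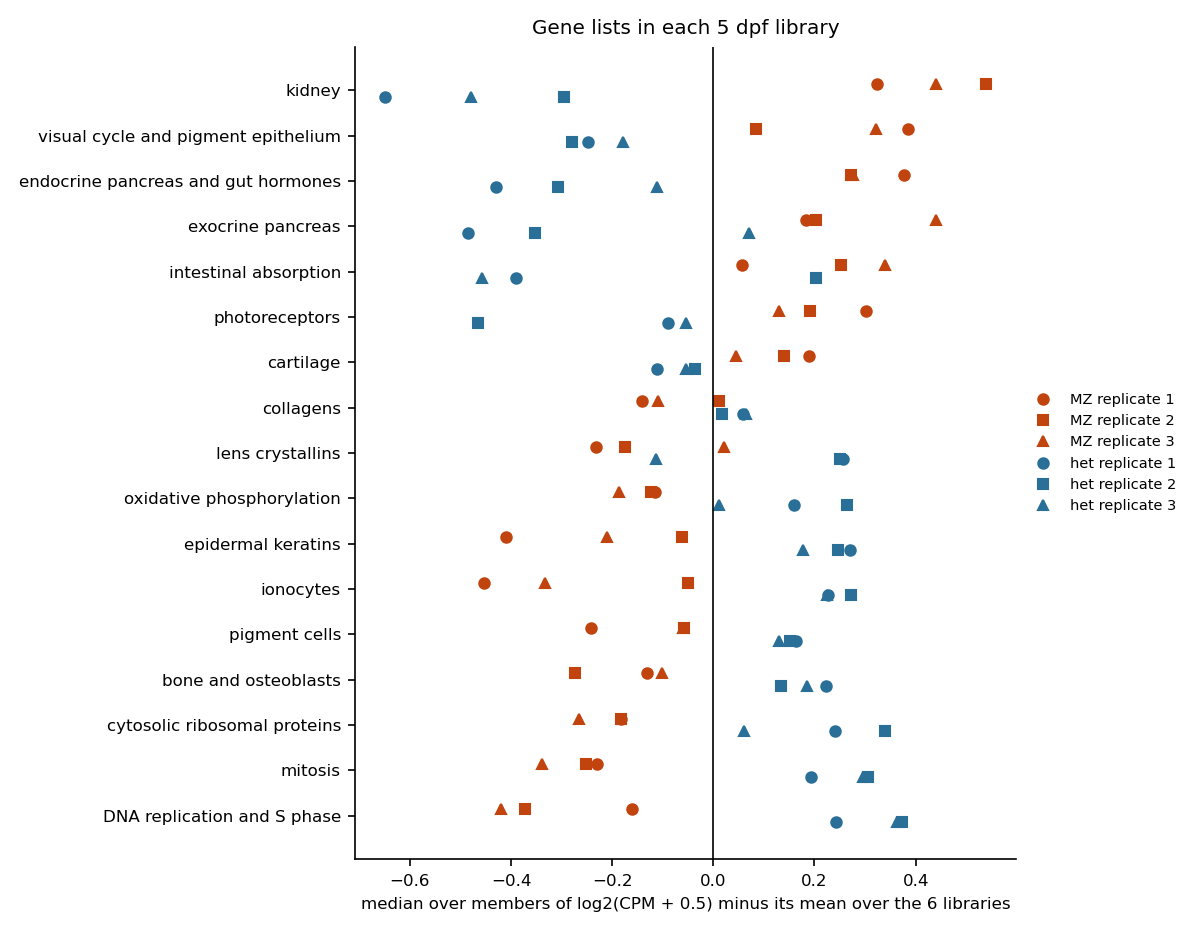
For 17 gene lists, the median over members of log2(CPM + 0.5) minus its mean over the 6 libraries, one point per library, MZ above het in each row. MZ and het points are separate for the kidney, replication, mitosis, ionocyte, bone and keratin lists, whereas het replicate 2 lies among the MZ libraries for the intestine, and MZ replicate 3 and het replicate 3 cross over for lens crystallins.

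Hormone genes were higher. Of 30 genes of the endocrine pancreas and gut hormones 19 were higher and 0 lower (median 0.67), and 12 were higher without het replicate 1. The somatostatin gene sst1.1 had 23.7, 17.5 and 16.5 CPM in MZ and 5.14, 6.77 and 8.72 CPM in het libraries (log2 fold change 1.49, SE 0.19, adjusted p = 4.21e-05). The prohormone convertase gene pcsk1 had 20.7, 11.3 and 22.0 CPM in MZ and 3.08, 3.96 and 8.45 CPM in het libraries (log2 fold change 1.79, SE 0.30, adjusted p = 0.000313), and pdx1, a transcription factor of the pancreas, had 8.25, 10.3 and 9.82 CPM in MZ and 3.08, 4.68 and 3.54 CPM in het libraries (log2 fold change 1.34, SE 0.20, adjusted p = 0.000117). Insulin, ins, chosen after its values were seen, had 6.97, 6.49 and 5.32 CPM in MZ and 1.302, 3.85 and 2.73 CPM in het libraries (log2 fold change 1.31, SE 0.29, adjusted p = 0.00255). Of 7 pituitary and hypothalamic hormone genes 6 were higher, and 3 without MZ replicate 3, at low levels. The growth hormone gene gh1 had 114, 32 and 73 counts in MZ and 32, 12 and 21 in het libraries (log2 fold change 1.62, SE 0.32, adjusted p = 0.000988). Prolactin, prl, had 81, 14 and 51 counts in MZ and 13, 9 and 6 in het libraries (log2 fold change 2.203, SE 0.45, adjusted p = 0.00137). Both were chosen after their values were seen, and both were lowest among MZ libraries in MZ replicate 2. Several genes of these lists are also neuronal, and the pan-neuronal list summed to 3344 to 4197 CPM in MZ and 1874 to 2662 CPM in het libraries. The part of neuronal RNA in the hormone lists was not tested.

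Of 11 thyroid hormone genes 7 were higher and 1 lower (median 0.53), and 2 were lower without MZ replicate 1. The deiodinase gene dio1, which activates and clears thyroid hormone, had 16.0, 11.8 and 14.5 CPM in MZ and 5.07, 6.45 and 2.52 CPM in het libraries (log2 fold change 1.64, SE 0.24, adjusted p = 0.000123). Thyroglobulin, tg, chosen after its values were seen, had 49, 68 and 44 counts in MZ and 13, 6 and 5 in het libraries (log2 fold change 2.69, SE 0.41, adjusted p = 0.000146). The gene klf9, which thyroid hormone and glucocorticoids both induce, had 41.2, 66.3 and 55.0 CPM in MZ and 111, 109 and 93.8 CPM in het libraries and fell (log2 fold change -0.95, SE 0.14, adjusted p = 0.000122). The glucocorticoid list of 23 genes gave 12 higher (52.2%) and 5 lower (21.7%), against 21.1% and 19.6% of all genes (median 0.30). The higher members included star (log2 fold change 1.11) and cyp21a2 (2.13), which serve steroid synthesis, and pck1 and igfbp1a, given above. The lower members, a share near that of all genes, included klf9, per1a (log2 fold change -1.36, SE 0.17, adjusted p = 2.89e-05) and fkbp5 (log2 fold change -0.42). Of these per1a is also a circadian clock gene. The receptor gene nr3c1 was not called (log2 fold change 0.08).

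In the eye, genes of the retina were mostly higher and those of the lens lower or not called. The pan-neuronal list given above was higher in the same libraries as the retinal lists, and its part in them was not tested. Of 54 photoreceptor genes 32 were higher and 6 lower (median 0.40), and 21 were higher without het replicate 2. The cone phosphodiesterase gene pde6h had 476, 421 and 389.5 CPM in MZ and 172, 109 and 138 CPM in het libraries (log2 fold change 1.62, SE 0.14, adjusted p = 1.35e-06), and crx, a transcription factor of photoreceptors, had 87.0, 79.9 and 79.5 CPM in MZ and 39.4, 29.0 and 51.0 CPM in het libraries (log2 fold change 1.04, SE 0.15, adjusted p = 0.000103). The ultraviolet opsin gene opn1sw1 had 4742, 4296 and 4281 CPM in MZ and 3515, 3009.8 and 3559 CPM in het libraries (log2 fold change 0.40, SE 0.11, adjusted p = 0.0104), and the rod opsin gene rho rose by 0.43. Of 24 genes of retinal interneurons 16 were higher and 1 lower (median 0.69). Their summed level went the other way, at 3047 to 3477 CPM in MZ and 3837 to 4216 CPM in het libraries. The calcium-binding protein genes cabp5a and cabp2a, known from bipolar cells, were among the 12 largest rises, with 12.8, 12.5 and 12.5 CPM in MZ and 0.548, 1.25 and 1.29 CPM in het libraries for cabp5a (log2 fold change 3.63, SE 0.25, adjusted p = 1.36e-07). The visual cycle, which regenerates the chromophore, had 12 of 23 genes higher and 4 lower (median 0.53), and 2 were lower without het replicate 1, het replicate 2 or MZ replicate 3. The genes rlbp1b and rpe65a rose, with 21.0, 12.98 and 19.2 CPM in MZ and 3.15, 2.91 and 3.13 CPM in het libraries for rlbp1b (log2 fold change 2.53, SE 0.20, adjusted p = 4.19e-07) and 17.6, 8.53 and 15.9 CPM in MZ and 4.18, 2.91 and 4.43 CPM in het libraries for rpe65a (log2 fold change 1.86, SE 0.25, adjusted p = 5.21e-05). The retinol esterifying gene lrata had 6.03, 7.23 and 4.80 CPM in MZ and 23.6, 21.0 and 20.8 CPM in het libraries and fell (log2 fold change -1.87, SE 0.16, adjusted p = 7.93e-07).

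Of 60 lens crystallin and lens fibre genes 0 were higher and 17 lower (median -0.28). The number called lower depended on single libraries. Leaving out het replicate 3 gave 43, and leaving out het replicate 1 gave 6, with 1 higher. Leaving out het replicate 2 gave 11 and leaving out MZ replicate 1 gave 10. It was 9 with the length trend taken out, where 2 were higher. The summed level was 27312 to 33599 CPM in MZ and 30301 to 39061 CPM in het libraries, so the groups overlapped. The most counted member, crybb1l1, had 2402, 2614 and 3226 CPM in MZ and 4008, 3787 and 3065 CPM in het libraries and was called in 2 of the 6 fits without 1 library. Crystallins form families of near copies, so single values are uncertain. The lens epithelium gene lenep fell, with 0.937, 2.04 and 1.55 CPM in MZ and 10.5, 9.16 and 6.68 CPM in het libraries (log2 fold change -2.59, SE 0.28, adjusted p = 7.57e-06).

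Muscle changed by gene rather than as a tissue. Of 40 fast muscle genes 14 were higher (35%) and 4 lower (10%), against 21.1% and 19.6% of all genes, with a median of 0.13. The lower count was 2 without het replicate 1, het replicate 2, MZ replicate 2 or MZ replicate 3, and with the length trend taken out. The calcium release channel gene ryr1b had 28.7, 39.1 and 39.1 CPM in MZ and 12.8, 13.3 and 10.8 CPM in het libraries (log2 fold change 1.53, SE 0.14, adjusted p = 2.43e-06), and the troponin gene tnni2a.1 had 119.8, 125 and 111 CPM in MZ and 46.4, 63.2 and 43.4 CPM in het libraries (log2 fold change 1.22, SE 0.13, adjusted p = 6.52e-06). The myosin heavy chain gene myhb, among the 12 largest rises, had 175, 232 and 192 CPM in MZ and 11.4, 38.3 and 16.1 CPM in het libraries (log2 fold change 3.23, SE 0.29, adjusted p = 1.91e-06). The markers mylpfa, tnnt3b, myhz2 and acta1b were not called. In the slow muscle list 5 of 17 genes were lower (29.4%) and 4 higher (23.5%), not far from the shares of all genes. The higher count was 1 or 2 in each fit without 1 library other than that without MZ replicate 1. It was 2 with the length trend taken out. The slow myosin light chain gene myl10 had 528, 567 and 483 CPM in MZ and 978, 1052 and 840.4 CPM in het libraries (log2 fold change -0.86, SE 0.11, adjusted p = 3.93e-05). The slow troponin gene tnnc1b had 174, 166 and 159.8 CPM in MZ and 297, 304 and 238 CPM in het libraries (log2 fold change -0.75, SE 0.11, adjusted p = 0.0001). Of 18 heart genes 8 were higher (44.4%) and 3 lower (16.7%). The ventricular myosin gene vmhcl had 38.6, 50.4 and 38.8 CPM in MZ and 12.5, 13.6 and 12.3 CPM in het libraries (log2 fold change 1.73, SE 0.13, adjusted p = 2.92e-07), and myh6, the atrial myosin, chosen after its values were seen, had 4.92, 6.03 and 5.83 CPM in MZ and 2.06, 2.91 and 2.11 CPM in het libraries (log2 fold change 1.26, SE 0.23, adjusted p = 0.000608). The actin gene actc1a, with most counts of that list, had 83.8, 91.7 and 147 CPM in MZ and 405, 469 and 483 CPM in het libraries (log2 fold change -2.07, SE 0.17, adjusted p = 6.21e-07), while the heart markers myl7 and nppa were not called.

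The erythrocyte list and the neutrophil and macrophage list stood below the share of all genes called. Of 22 erythrocyte genes 5 were higher and 2 lower, with 1 lower without het replicate 2 or MZ replicate 3 and 4 without het replicate 3 or MZ replicate 1. Globin genes differed. The embryonic globin gene hbbe1.1 was not called (log2 fold change -0.27, SE 0.11, adjusted p = 0.0568). The globin genes hbae1 and hbbe1.2 were called higher in each of the 6 fits without 1 library. Their log2 fold changes in those fits were 1.007 to 1.384 for hbae1 and 0.313 to 0.620 for hbbe1.2. Of 28 genes of neutrophils and macrophages 4 were higher and 5 lower, or 2 and 5 without het replicate 3. The neutrophil gene mpx fell by 0.86, but lyz had 62.8, 46.5 and 44.6 CPM in MZ and 55.0, 55.2 and 38.7 CPM in het libraries and was not called. The antigen presentation gene cd74a had 3.69, 3.24 and 2.73 CPM in MZ and 9.25, 10.8 and 11.9 CPM in het libraries (log2 fold change -1.72, SE 0.19, adjusted p = 1.08e-05). Motile cilia, which move the cerebrospinal fluid, had few genes called: 2 of 52 were higher and 2 lower, against 40.7% of all genes called. In every fit without 1 library 1 or 2 genes passed in each direction. The median was -0.05, which turned positive with library totals alone and without MZ replicate 3. All 59 members in the table summed to a mean of 188 CPM in MZ and 194 CPM in het libraries. At such low levels small shifts may go undetected, so the low share of calls need not be a trait of cilia. The filament gene tekt3 fell (log2 fold change -0.97, SE 0.20, adjusted p = 0.0014), spag1a was not called, and the higher genes were dnaaf3 and rfx3, of cilium assembly. In the 8 tested genes of the Reissner fibre and the urotensin peptides it controls, 6 were higher and 1 lower, but 2 were higher without het replicate 1 and 3 with DESeq2. The urotensin-related peptide gene urp1 had 72, 41 and 45 counts in MZ and 36, 16 and 23 in het libraries (log2 fold change 0.98, SE 0.26, adjusted p = 0.00813). For urp2 there were 64, 27 and 27 counts in MZ and 23, 5 and 26 in het libraries, and the call was made in 3 of the 6 fits without 1 library (log2 fold change 1.04, SE 0.37, adjusted p = 0.0348). Both were chosen after their values were seen. The clusterin gene clu had 35.3, 39.7 and 35.4 CPM in MZ and 53.0, 53.1 and 53.3 CPM in het libraries (log2 fold change -0.53, SE 0.10, adjusted p = 0.000688).

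A grouping of symbols by their letters gave 200 families with at least 10 tested members, of which 20 had at least 60% of them called in 1 direction, 9 higher and 11 lower. Among the higher families, cacna and scn (calcium and sodium channels), grin and htr (glutamate and serotonin receptors), syt (synaptotagmins) and camk (calcium and calmodulin kinases) are neuronal in large part. The others were pax, lrp and rdh. The pax transcription factors had 9 of 13 members higher, and 4 without het replicate 1 and 5 without MZ replicate 1. They were led by pax2a, of kidney, thyroid and brain, with 35.3, 30.5 and 28.6 CPM in MZ and 10.07, 8.54 and 13.2 CPM in het libraries (log2 fold change 1.56, SE 0.15, adjusted p = 3.39e-06). The lrp endocytic receptors had 9 of 10 higher, but their median length was 11446 bases and 5 were higher with the length trend taken out. The rdh retinol dehydrogenases had 7 of 11 higher, among them rdh1 and rdh8b. Each lower family stood well past the 19.6% of all genes called lower, since the grouping rule asked for it. The lower families included rpl, rps, mrpl and mrps, mostly of ribosomal proteins. The rps stem also takes in genes outside the ribosomal protein list, and 3 of its 45 tested members were higher, by up to 1.56. Lower too were polr (RNA polymerase subunits, 20 of 27), exosc (the RNA exosome, 6 of 10) and timm (mitochondrial import, 8 of 11). So were anapc (the anaphase promoting complex, 6 of 10) and arpc (the actin nucleating complex, 8 of 10). The last were capn (calpains, 8 of 13) and anxa (annexins, 9 of 15). The count for anxa was 4 without het replicate 1 or MZ replicate 3, 5 without het replicate 2 and 6 without MZ replicate 1, and that for timm was 5 without het replicate 1 and 4 without MZ replicate 3. The actin nucleating gene arpc5b had 47.0, 46.4 and 43.6 CPM in MZ and 93.7, 87.8 and 80.3 CPM in het libraries (log2 fold change -0.93, SE 0.10, adjusted p = 7.88e-06), and anxa5a had 26.0, 37.4 and 33.1 CPM in MZ and 63.1, 60.1 and 55.3 CPM in het libraries (log2 fold change -0.89, SE 0.13, adjusted p = 8.48e-05).

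The genotype difference at 5 dpf was set beside those at 15 and 30 dpf, where 171 of 19306 genes (0.886%) and 657 of 19979 genes (3.29%) were called. A genotype by age interaction was called for 7050 of 21191 genes (33.3%), and for 5529 of the 8043 genes called at 5 dpf (68.7%). Genes called at 5 dpf were picked by libraries that the interaction also uses, which raises that share and the counts of called members below. All 65 called cytosolic ribosomal protein genes had a called interaction. The median log2 fold change of all 77 tested was -0.42 at 5 dpf, 0.35 at 15 dpf and 0.21 at 30 dpf. Of the 77, however, 4 were called higher and 0 lower at 15 dpf, and 0 were called at 30 dpf. Of the 34 replication genes called at 5 dpf 26 had a called interaction, and the list's median was -0.17 at 15 dpf and 0.08 at 30 dpf. For mitosis 10 of 28 did, with medians of -0.33 and -0.11. Of the 16 called ionocyte genes 14 had an interaction, and rhcga, at a log2 fold change of -2.63 at 5 dpf, had 0.29 (edgeR adjusted p = 0.22) at 15 dpf and 0.08 (adjusted p = 0.68) at 30 dpf. Of the 17 called kidney genes 14 had one, with list medians of 0.45 at 15 dpf and -0.41 at 30 dpf. At 15 dpf 0 of 18 kidney genes tested were called, and at 30 dpf 1 of 21, lower. Of 11 called heart genes 2 had a called interaction. The heart median was 0.52 at 15 dpf and 0.49 at 30 dpf, close to the 0.45 at 5 dpf. However, only 2 of 16 heart genes tested were called at 15 dpf and 0 of 16 at 30 dpf. Of 18 called Hox genes 8 had a called interaction. The interaction rests on all 18 libraries and cannot tell an effect of age from conditions of the 5 dpf groups alone.

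**Figure D5:**
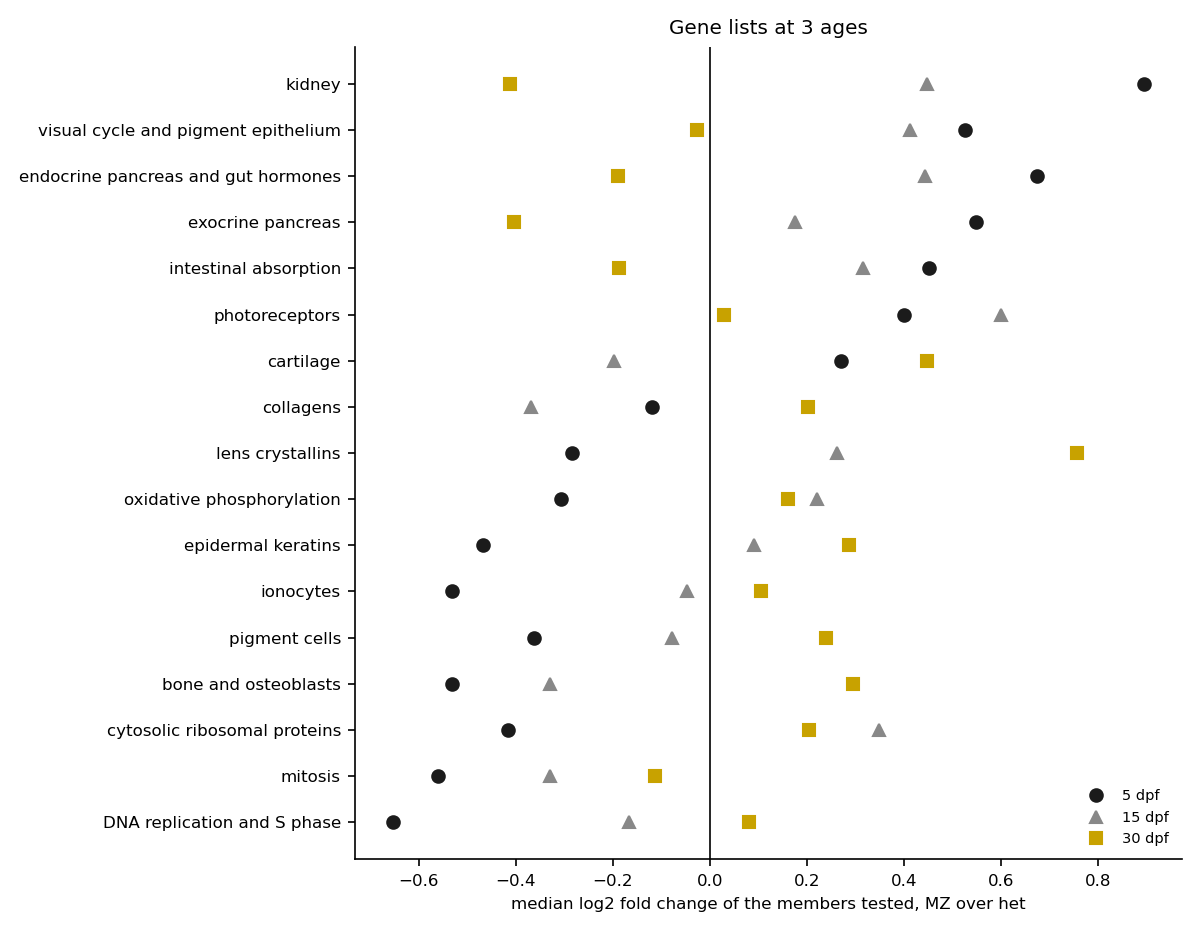
Median log2 fold change, MZ over het, of the tested members of 17 gene lists at 5, 15 and 30 dpf. The kidney median is 0.90 at 5 dpf, 0.45 at 15 dpf and -0.41 at 30 dpf, and the cytosolic ribosomal protein median is -0.42, 0.35 and 0.21. Few members were called at the later ages: at 15 dpf 0 of 18 kidney and 4 of 77 ribosomal genes. At 30 dpf these were 1 of 21 and 0 of 77.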

How the data were processed

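The authors deposited whole-number counts per gene name for 18 whole-body libraries. Per the labels' protocols, total RNA was taken with Trizol and a QIAGEN column and made into libraries with a Takara Clontech SMARTer kit. The submitters' processing notes name cutadapt, STAR 2.5.4b, featureCounts 1.6.3, Subread and GRCz10, with no role for each. Strandedness is not given in the sources used here, so reads of genes that overlap on opposite strands cannot be told apart, and neither is the treatment of reads that match near-identical genes. Libraries held 10178388 to 16359394 counts at 5 dpf, and libraries of 1 genotype differed by more than counting error (chi-square per degree of freedom 4.73 to 9.54).

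Genes with enough counts (filterByExpr, minimum count 10) were tested in the 6 libraries of 5 dpf with edgeR 4.0.16 in R 4.3.3 (TMM factors, quasi-likelihood test, Benjamini-Hochberg adjusted p under 0.05). On simulated counts with 200 genes changed, the test recovered 80% of 2-fold rises and 85.7% of 2-fold falls. It also called 18 unchanged genes, of 19549 tested. In the data 8043 genes were called, so a simulation with so few changed genes does not show how the test behaves here. The interaction used all 18 libraries. Alternatives were other scalings, DESeq2 1.42.0, other count filters, a replicate block, each library left out, and, chosen after seeing the data, a length trend taken out. Same-numbered MZ and het libraries did not deviate together (r of -0.05, 0.06 and -0.03), so the numbers were not taken as pairs.

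The comparison and the gene lists were chosen with earlier results of these data known, and list members matched wrongly were removed after a first fit. Lists are described by counts and medians, with no set test. Named genes are, per list, the 3 called members with the largest fold change at 5 CPM or more and the member with most counts; over all genes, the 12 largest rises and 12 largest falls at 5 CPM or more whose groups do not overlap; per symbol family, the largest called members; and the tissue markers. Any other gene was named after its values were seen. A few single genes are not reported here.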

Additional observations from a re-analysis of the deposited data

Results flagged for a closer look

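The genotype difference at 5 dpf differed from those at 15 and 30 dpf for many genes. By edgeR's quasi-likelihood test of the genotype by age terms over 18 libraries, 7050 of 21191 genes (33.3%) passed an adjusted p of 0.05. Of the 8043 genes called at 5 dpf, 5529 were among them, and of 286 named genes called at 5 dpf, 237. Several genes given in the text, such as krt5 and mitfa, are outside those 286. Both sets were picked by their values in the 5 dpf libraries, which the interaction also uses. Their high shares follow in part from that choice and are no separate evidence. Examples are rhcga, per2 and cyp24a1, whose log2 fold changes at 5 dpf were -2.63, 4.04 and 3.81.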

How the results depend on the processing

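Leaving out each library in turn gave 6005 to 7937 genes called at 5 dpf, 3154 to 4162 higher and 2851 to 3775 lower, 1947 to 2694 by more than 2-fold, and 5705 to 6952 for the genotype by age interaction. With a minimum count of 50, 1383 genes passed by more than 2-fold, against 2258; the filter removes low genes, where large fold changes are more frequent. DESeq2 called 6912 genes. With the replicate number as a block 7825 genes were called at 5 dpf, 4119 higher and 3706 lower, and 6408 for the interaction; not every library deviated most like its own number, and the block is no evidence of pairing. With 1 fit over all 18 libraries fewer members were called higher in several lists: 8 cartilage, 8 intestinal, 15 photoreceptor, 5 liver and 4 heart genes, and 2 lens genes were lower. Of 319 named genes tested, 273 kept their call and direction in every alternative. That count leaves out several genes given in the text, among them krt5, epcam, mitfa, dct, foxi3a and foxi3b. Of 96 lists and families, 16 had a median that changed sign in at least 1 alternative, among them complement, erythrocyte and motile cilia genes. Depth limits genes with few counts, such as scospondin.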

Other observations

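Further gene groups at 5 dpf are given beside the 21.1% of all genes called higher and 19.6% called lower; those of chaperonins, of signalling and of the inner ear lay near these shares. Of 14 apolipoprotein genes 6 were lower and 2 higher. Of 29 chaperonin and heat shock genes 8 were lower and 7 higher, with the inducible hsp70l at 11.5, 5.75 and 10.9 CPM in MZ and 2.26, 2.19 and 1.43 CPM in het libraries (log2 fold change 2.28, SE 0.28, adjusted p = 2.52e-05, edgeR) and chaperonin subunits such as cct7 (log2 fold change -0.49) and tcp1 (-0.57) lower. Of 28 genes of endoplasmic reticulum stress 10 were lower and 3 higher. Of 24 retinoic acid genes 7 were lower and 1 higher, but 3 were lower without het replicate 2, 4 without MZ replicate 3, and 0 higher without het replicate 1, het replicate 2, MZ replicate 2 or MZ replicate 3. The median of -0.08 was 0.0084 without het replicate 3. The binding protein gene crabp2a had 29.4, 30.0 and 27.5 CPM in MZ and 69.1, 74.4 and 65.9 CPM in het libraries (log2 fold change -1.27, SE 0.10, adjusted p = 4.76e-07, edgeR). Of 34 targets and ligands of Hedgehog, Wnt, BMP and Notch signalling 9 were lower and 7 higher, with 4 or 5 higher without any 1 library other than MZ replicate 3. The Hedgehog ligands shha (0.54) and ihha (0.80) and the receptor gene ptch1 (0.90) rose, although more genes of the list were lower than higher. Of 23 tested genes with the symbol stem wnt 7 were lower and 2 higher (median -0.46). In the inner ear list 7 of 24 were higher, among them otomp, of the otolith, at 39.7, 54.2 and 38.1 CPM in MZ and 16.0, 16.1 and 21.4 CPM in het libraries (log2 fold change 1.29, SE 0.15, adjusted p = 1.75e-05, edgeR), and 4 lower.

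The MHC class I gene mhc1uba, chosen after its values were seen, had 28, 16 and 35 counts in MZ and 0 in each het library at 5 dpf. Its log2 fold changes at 15 and 30 dpf were -0.47 and 0.85. MHC class I genes are known to differ between zebrafish haplotypes, and the genetic background of the 2 groups is not given in the labels.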
